A study of Mus musculus with 6 samples.

Results

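The natriuretic peptide system was examined in heart ventricles with and without Trex1, through its 3 peptide genes (Nppa, Nppb and Nppc), its 3 receptor genes (Npr1, Npr2 and Npr3) and the protease gene Corin. The members were the probe sets annotated to these 7 of the 18193 gene symbols, 9 of the 45037 probe sets on the array that were not controls, and 0 further probe sets named a member together with another gene. Of the 9, 8 probe sets of 6 genes were bright enough to be tested, and the probe set of Npr1 was not. In the mouse genome Nppa, Nppb and Npr2 lie on chromosome 4, Nppc on chromosome 1, Npr1 on chromosome 3, Corin on chromosome 5 and Npr3 on chromosome 15. Total RNA of 6 mouse hearts was hybridised to 1-colour arrays, 1 array per animal. The 3 Trex1 KO mice lacked Trex1, the exonuclease that degrades DNA in the cytosol, and the 3 Trex1 WT mice carried it. Every animal in both groups also lacked Rag2 (RAG2KO), a gene needed to assemble antigen receptors, so that mature T and B cells were absent from both groups by design. The 6 animals formed 3 littermate pairs, called A, B and C, each with 1 Trex1 KO and 1 Trex1 WT mouse; the sources used here do not give strain, age or sex. Values of a group are listed in the order of pairs A, B, C.

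Natriuretic peptides are hormones of the heart that lower blood pressure and blood volume. Cardiomyocytes make atrial natriuretic peptide (ANP, from Nppa) and B-type natriuretic peptide (BNP, from Nppb) as longer propeptides when the heart wall is stretched; in the adult, Nppa is transcribed mainly in the atria and is low in the working ventricle unless the ventricle is under load. C-type natriuretic peptide (CNP, from Nppc) comes mostly from endothelial cells. Corin is the membrane protease of cardiomyocytes that cuts pro-ANP. Npr1 and Npr2 encode receptors that are themselves guanylyl cyclases and make cyclic GMP on binding, Npr1 of ANP and BNP and Npr2 of CNP, while Npr3 encodes the clearance receptor, which takes up all these peptides and has no cyclase domain.

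Nppa and Nppb lie next to each other in tandem and are the pair of members whose values are contrasted most below, so the 250 bases upstream of each annotated start are shown. They were taken from RefSeq promoters of the build GRCm38.p6, in which all 7 members had an entry, and both read along the plus strand, at chr4:148000472-148000721 for Nppa and chr4:147985650-147985899 for Nppb. Capitals mark matches, on either strand, to short motifs of factors known to act at cardiac genes: GATAA for GATA factors, TNAAGTG for NKX2-5, AGGTGT for T-box factors, CATTCC for TEAD factors, TATAAA for the TATA box, the CArG box of serum response factor, and the interferon-stimulated response element, searched as GAAA and GAAA with any 2 bases between them.
Nppa: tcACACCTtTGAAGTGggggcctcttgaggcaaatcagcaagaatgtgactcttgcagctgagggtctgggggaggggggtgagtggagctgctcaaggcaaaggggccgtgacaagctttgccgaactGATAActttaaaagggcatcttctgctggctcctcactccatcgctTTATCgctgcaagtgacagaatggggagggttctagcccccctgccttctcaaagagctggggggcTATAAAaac
Nppb: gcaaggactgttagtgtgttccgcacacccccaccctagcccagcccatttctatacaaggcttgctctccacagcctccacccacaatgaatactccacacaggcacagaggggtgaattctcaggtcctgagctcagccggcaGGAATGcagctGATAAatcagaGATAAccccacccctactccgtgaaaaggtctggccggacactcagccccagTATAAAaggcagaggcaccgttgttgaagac
The Nppa window held a T-box match at bases -248 to -243, an NKX2-5 match at -241 to -235, GATA matches at -121 to -117 and -75 to -71 and a TATA box at -9 to -4, counted from the annotated start. The Nppb window held a TEAD match at -105 to -100, GATA matches at -94 to -90 and -83 to -79 and a TATA box at -31 to -26. No matches overlapped each other, and neither window held an exact match to the CArG box or to the interferon-stimulated response element. Inexact sites were not searched for, so a site that departs from these letters is not marked. Among 32851 promoter windows of the same length, 22.6% held GATAA, 10.1% TNAAGTG, 11.8% AGGTGT, 12.6% CATTCC, 12.4% TATAAA, 1.47% the CArG box and 2.98% the interferon-stimulated response element. These are matches of letters only, and no binding was measured.

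The labels were checked first. The probe set of Trex1, which the annotation gives to Atrip and Trex1 together, had signals of 9.45, 20.6 and 34.2 in Trex1 KO, against 714, 340 and 887 in Trex1 WT (limma adjusted p = 0.00109). The sources used here do not say if that probe set falls inside the deletion. Ventricular cardiomyocyte markers were high on all arrays, with Myl2 (ventricular myosin light chain) between 43784 and 48853 in Trex1 KO and between 39382 and 51103 in Trex1 WT. Bacterial control probe sets, 27 in number and with no counterpart in heart, reached 69.8 at most, and signals near or under this value are called near background. The ratio of 3' to 5' Actb signal, a measure of RNA integrity in which higher is worse, was 1.66, 1.60 and 1.68 in Trex1 KO, against 2.09, 2.29 and 1.80 in Trex1 WT. These groups did not overlap (exact two-sided permutation p = 0.1, which is the lowest a design of this size allows). The 18S ribosomal signal was 1284, 865 and 588 in the Trex1 KO arrays and 6815, 6226 and 503 in the Trex1 WT arrays (exact permutation p = 0.4). Littermates of pair C were close in both measures.

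Nppa, the ANP gene, was higher in every Trex1 KO ventricle than in any Trex1 WT ventricle. Its signal was 28144, 30449 and 35782 in Trex1 KO, against 10934, 18482 and 19078 in Trex1 WT. The lowest Trex1 KO array lay above the highest Trex1 WT array. The means were 31458 ± 3918 in Trex1 KO and 16165 ± 4540 in Trex1 WT (SD, n = 3 each), and each Trex1 KO animal exceeded its own littermate, by ratios of 2.57, 1.65 and 1.88. The difference was 1.0 on the log2(signal + 16) scale (SE 0.20, 95% interval 0.56 to 1.43), a 2.0-fold difference with an interval of 1.47 to 2.70. It did not pass the threshold of 0.05 in the fit that ignores litters (limma, Benjamini-Hochberg adjusted p = 0.126 over 27022 probe sets, unadjusted p = 0.000469). It passed when the littermate pair was taken as a block (log2 difference 1.0, SE 0.12, 95% interval 0.72 to 1.27, limma adjusted p = 0.00886), and the pairing comes from the series' own design text. That blocked fit has 2 residual degrees of freedom, so its SE and p-value lean in part on the spread of other probe sets. With the block but no intensity trend in eBayes, Nppa did not pass (limma adjusted p = 0.507). The Nppa difference also passed without the block after quantile normalization (1.03, limma adjusted p = 0.0369).

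Set against all probe sets, 0 of the 8 tested member probe sets passed without the block, where 0.244% of all tested probe sets did, and 1 of 8 passed with it, the probe set of Nppa, where 0.448% did. At an unadjusted p under 0.05, 1 of 8 passed without the block, against 5.44% of all tested probe sets, and 1 of 8 with it, against 8.26%. The groups did not overlap for 1 of 8, against 10.6% of all tested probe sets. Counts of 0 or 1 in 8 are too small to set apart from these shares, so the result concerns Nppa and not the members as a group.

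**Figure D1:**
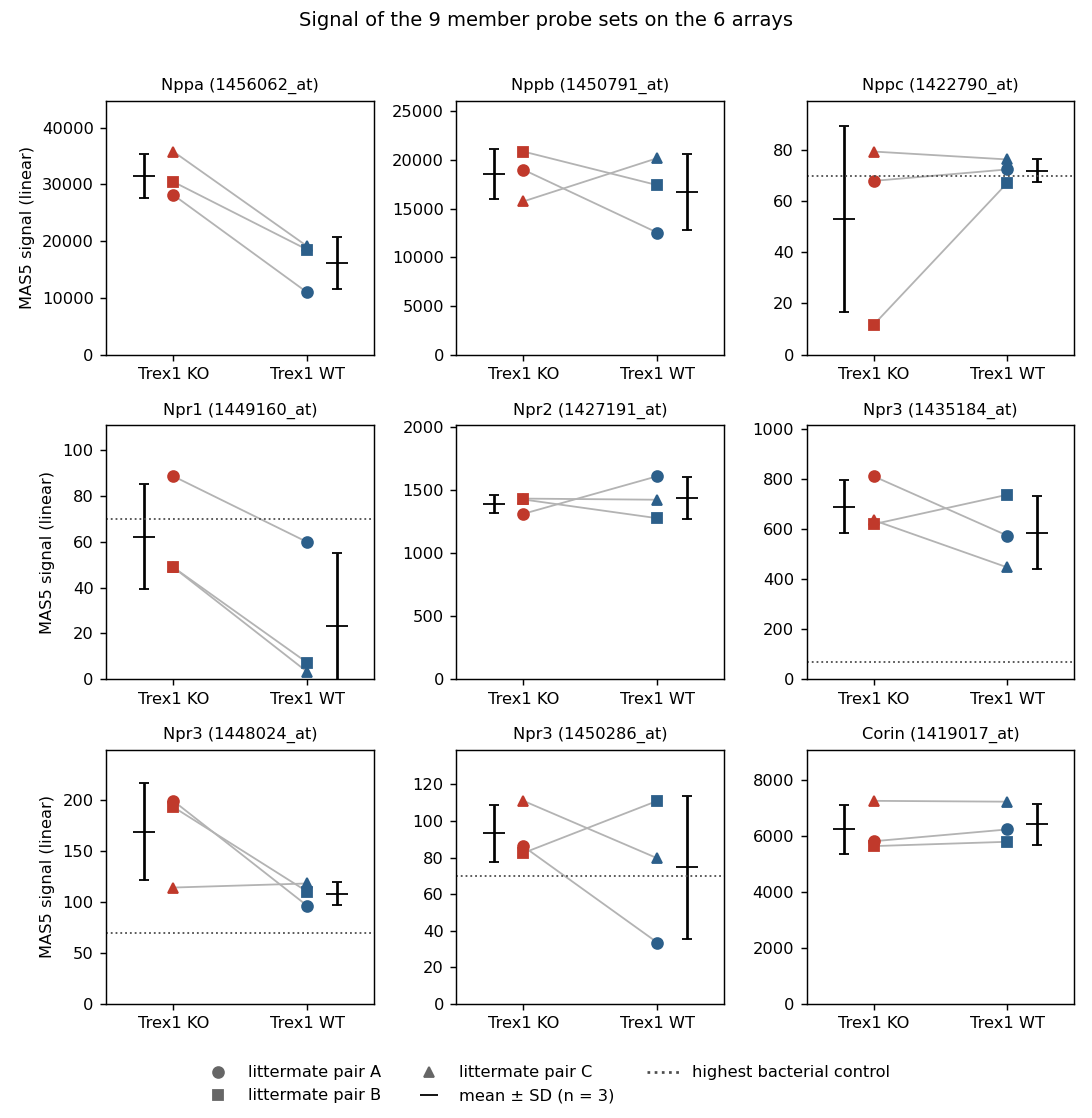
MAS5 signal (linear scale) of the 9 member probe sets on each array, Trex1 KO at left and Trex1 WT at right; symbols mark the littermate pairs, grey lines join littermates, bars are mean ± SD (n = 3, cut at 0) and the dotted line is the highest bacterial control, 69.8, drawn where all signals are under 1000. All 3 Trex1 KO values of Nppa lie above all 3 Trex1 WT values, and in the other 8 panels the groups overlap.

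Nppb, the BNP gene, showed overlapping groups. Its signal was 19002, 20870 and 15743 in Trex1 KO, against 12527, 17414 and 20194 in Trex1 WT. The Trex1 KO animal was the higher littermate in pairs A and B and the lower one in pair C, with ratios of 1.52, 1.20 and 0.78. The log2 difference was 0.17 (SE 0.17, 95% interval -0.21 to 0.55, limma adjusted p = 0.959), and the upper bound corresponds to 1.46-fold. With the block the interval was -0.19 to 0.52 (limma adjusted p = 0.808). Trex1 WT A had the lowest signal of all 6 arrays for Nppa and for Nppb alike, and without that array the log2 differences were 0.74 for Nppa (limma adjusted p = 0.0584) and -0.03 for Nppb (limma adjusted p = 1.0). Pair C differed from the other pairs in its sex-linked transcripts, with Xist at 7569 in Trex1 KO C and 6747 in Trex1 WT C and at most 119 in the 4 animals of pairs A and B. Eif2s3y, on the Y chromosome, was 2138 and 2146 in Trex1 KO A and B and 2571 and 2513 in Trex1 WT A and B. In pair C it was 47.3 in Trex1 KO and 6.6 in Trex1 WT. By these transcripts pair C was female and pairs A and B were male. The part of sex in the pair differences was not tested.

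Whether Nppa and Nppb differed in their response was tested after their values were seen. The log2 value of Nppa minus that of Nppb was 0.57, 0.54 and 1.18 in Trex1 KO, against -0.20, 0.09 and -0.08 in Trex1 WT. The groups did not overlap, and the littermate difference in Nppa exceeded that in Nppb by 0.76, 0.46 and 1.27 within the pairs. The mean excess was 0.83 on the log2 scale (exact two-sided permutation p = 0.1, the smallest possible with 3 arrays against 3).

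Nppc, the CNP gene, was near background. Its signal was 68.0, 11.6 and 79.5 in Trex1 KO, against 72.5, 67.3 and 76.4 in Trex1 WT. A single low array, Trex1 KO B, carried the log2 difference of -0.54 (SE 0.47, limma adjusted p = 0.956), which was 0.03 without it (limma adjusted p = 1.0). At these signals a change in Nppc could be missed.

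Corin, the protease that activates pro-ANP, was bright on all arrays, and its groups overlapped. Its signal was 5815, 5641 and 7260 in Trex1 KO, against 6238, 5796 and 7230 in Trex1 WT. The highest 2 of the 6 values belonged to the littermates of pair C, and the ratios within pairs were 0.932, 0.973 and 1.0. The log2 difference was -0.04 (SE 0.13, 95% interval -0.33 to 0.24, limma adjusted p = 0.986), so that the interval of the ratio ran from 0.798 to 1.18. With the block the interval narrowed to -0.22 to 0.13 on the log2 scale (limma adjusted p = 0.907).

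Among the receptors, Npr2, the CNP receptor, was well above background, and its groups overlapped. Its signal was 1314, 1428 and 1435 in Trex1 KO, against 1613, 1279 and 1426 in Trex1 WT. The Trex1 KO values spread by 4.87% and the Trex1 WT values by 11.6% (SD over mean). The log2 difference was -0.04 (SE 0.12, 95% interval -0.31 to 0.22, limma adjusted p = 0.987).

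Npr3, the clearance receptor, was measured by 3 probe sets, none of which passed. The brightest gave 812, 620 and 636 in Trex1 KO, against 574, 738 and 447 in Trex1 WT, with the Trex1 KO animal higher in pairs A and C and lower in pair B. Its log2 difference was 0.25 (SE 0.19, 95% interval -0.18 to 0.67, limma adjusted p = 0.955). A dimmer probe set gave 199, 193 and 114 in the Trex1 KO arrays and 96.1, 110 and 118 in the Trex1 WT arrays, with a difference of 0.54 (SE 0.26, 95% interval -0.04 to 1.12, limma adjusted p = 0.934) and no excess in pair C. The dimmest, close to background at 86.1, 82.5 and 111 in Trex1 KO and 33.5, 111 and 79.6 in Trex1 WT, gave 0.37 (limma adjusted p = 0.959). The mean of the 3 probe sets differed by 0.39 (SE 0.19, limma adjusted p = 0.926), so the estimates were all above 0 while each single interval included it.

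Npr1, the ANP and BNP receptor, could not be measured by its probe set. Its signal was 88.7, 48.9 and 48.9 in Trex1 KO, against 59.9, 7.20 and 3.17 in Trex1 WT. Only the first of these lay above the highest bacterial control, and the gene was not tested in the filtered fit. Each Trex1 KO value exceeded that of its littermate, the groups overlapped, and without the filter the limma adjusted p was 0.931 (unadjusted p = 0.0466). No fold is given between signals at this level.

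**Figure D2:**
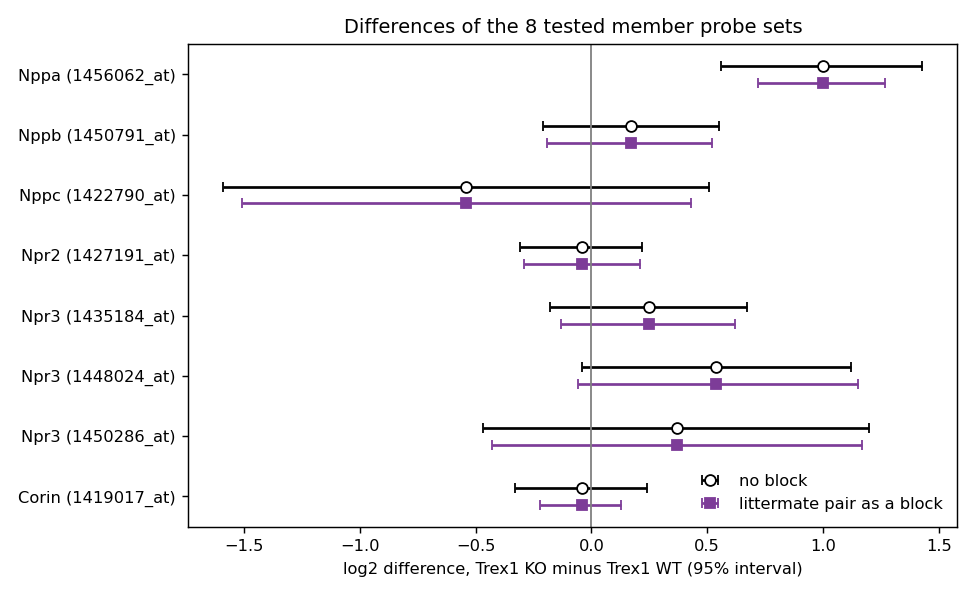
Log2 difference, Trex1 KO minus Trex1 WT, of the 8 tested member probe sets, with 95% intervals; open circles are the fit without a block and squares the fit with the littermate pair as a block. The intervals of Nppa run from 0.56 to 1.43 and from 0.72 to 1.27 and lie to the right of 0, and all other intervals include 0.

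Because Nppa is an atrial gene, atrial markers were set beside it. The arrays measured RNA of bulk ventricle, in which more atrial or other cells and more RNA per cell cannot be told apart. Of the 5 atrial markers, Sln (sarcolipin) and Bmp10 lay below the highest bacterial control on all 6 arrays, and 0 of the 3 tested markers passed. Myl7, the atrial myosin light chain, had 145, 64 and 119 in Trex1 KO, against 77.1, 297 and 13.6 in Trex1 WT, so that its highest value was in a Trex1 WT array (log2 difference 0.34, limma adjusted p = 0.979). Myl4, the other atrial light chain, had 255, 374 and 328 in Trex1 KO and 297, 263 and 268 in Trex1 WT (log2 difference 0.18, limma adjusted p = 0.959). Dkk3, a secreted protein enriched in atria, had 85.5, 108 and 73.4 in Trex1 KO and 46.9, 78.9 and 41.3 in Trex1 WT (0.57, limma adjusted p = 0.955). The summed signal of the 5 markers ranged from 551 to 563 in Trex1 KO and from 369 to 658 in Trex1 WT, with overlapping groups. All 3 tested markers had differences above 0, with a median of 0.34 and medians within the pairs of 0.69, 0.38 and 0.64, and their part in the Nppa difference was not tested beyond a covariate fit. With the mean log2 value of the 5 atrial markers as a covariate, the Nppa difference was 1.09 without the block (limma adjusted p = 0.170). With the block it was 0.90 (limma adjusted p = 0.000461). That blocked fit keeps fewer residual degrees of freedom than the 2 of the block alone. Its p-value leans on the spread of other probe sets. The covariate includes Sln and Bmp10, both near background, so it is a weak measure of atrial RNA.

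The Actb ratio separated the groups as Nppa did, so RNA integrity and genotype cannot be told apart in these arrays. In pairs A, B and C the ratio was 1.66, 1.60 and 1.68 in Trex1 KO and 2.09, 2.29 and 1.80 in Trex1 WT. The Nppa differences in these pairs were 1.36, 0.72 and 0.91. With the ratio as a covariate the Nppa difference was 0.87 (SE 0.37, limma adjusted p = 0.825) without the block. With the block it was 1.11 (SE 0.24, limma adjusted p = 0.0997), and the call was lost in that blocked fit. The part of RNA integrity in the Nppa difference was not tested beyond these covariate fits. With pair A left out the blocked fit gave 0.81 (limma adjusted p = 0.00970). Leaving out pair B or pair C gave 1.13 and 1.04 in the blocked fit (limma adjusted p = 0.000188 and 0.00135). The blocked fit did not pass in eBayes without an intensity trend (limma adjusted p = 0.507), where 0 of all 27022 probe sets passed, with 2000 at an unadjusted p under 0.05.

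**Figure D3:**
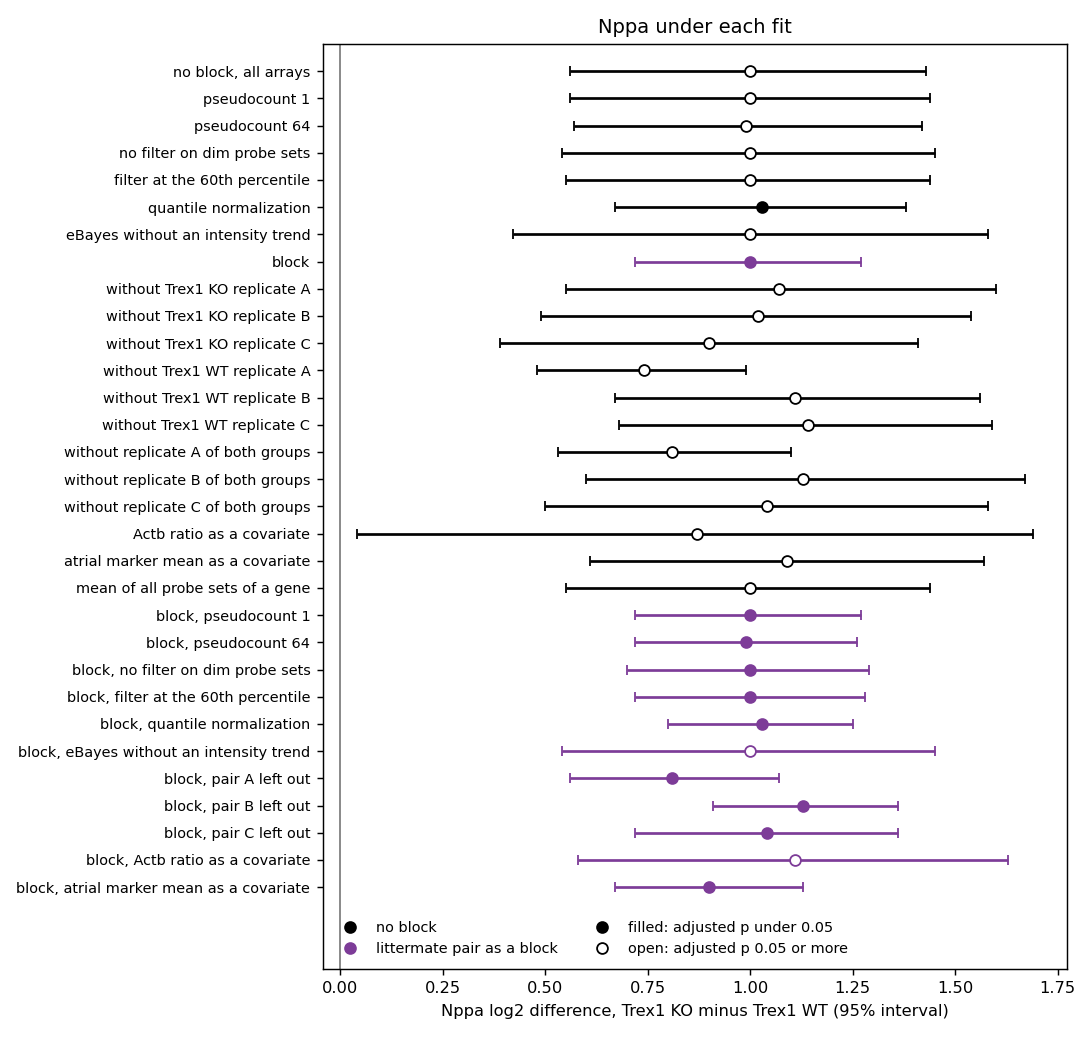
Log2 difference of Nppa, Trex1 KO minus Trex1 WT, with its 95% interval in the fit of all arrays and under 30 other settings; purple marks fits with the littermate pair as a block, and filled points have an adjusted p under 0.05. Every estimate lies between 0.74 and 1.14, and most blocked fits pass while most unblocked ones do not.

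Genes of ventricular load and hypertrophy were described beside Nppa, which is itself counted among such genes in general. Of the 10 tested genes of this list (12 listed), 0 passed without or with the block in limma. At an unadjusted p under 0.05 there were 4 without the block, against 5.29% of all tested genes. With the block there were 5 (Ccn2, connective tissue growth factor, in addition), against 8.27%. The groups did not overlap for 4 of the 10 genes, against 10.6% of all probe sets. Their median log2 difference was 0.21, against -0.02 over all 12811 tested genes. Acta1, skeletal alpha-actin, which the hypertrophied ventricle re-expresses, had signals of 24521, 23049 and 23398 in Trex1 KO, against 16730, 14351 and 18495 in Trex1 WT. Its groups did not overlap, and its log2 difference of 0.52 had limma adjusted p-values of 0.175 without and 0.0597 with the block.

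The other 3 genes without overlap are named after their values were seen. Postn, the matrix protein periostin of activated fibroblasts, had 3151, 3250 and 2627 in Trex1 KO and 1553, 2251 and 1834 in Trex1 WT (log2 difference 0.68, limma adjusted p = 0.203, and 0.0544 with the block); it passed without Trex1 WT B. Ankrd1, a stretch-responsive sarcomere protein, had a difference of 0.24 and Rcan1, a target of calcineurin signalling, one of 0.26 (limma adjusted p = 0.866 and 0.870), and a dimmer probe set of each was also higher in Trex1 KO on average, by 0.44 and 0.66 (limma adjusted p = 0.210 and 0.871). Other genes of the list had overlapping groups. Myh7, the fetal myosin heavy chain, had 2611, 3267 and 1927 in Trex1 KO, against 3344, 3656 and 1646 in Trex1 WT (log2 difference -0.10, limma adjusted p = 0.987). The brightest probe set of Atp2a2, the calcium pump of the sarcoplasmic reticulum, had a difference of -0.01 (limma adjusted p = 0.997). Its other 5 tested probe sets gave between -0.64 and 0.05 (lowest limma adjusted p = 0.871).

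**Figure D4:**
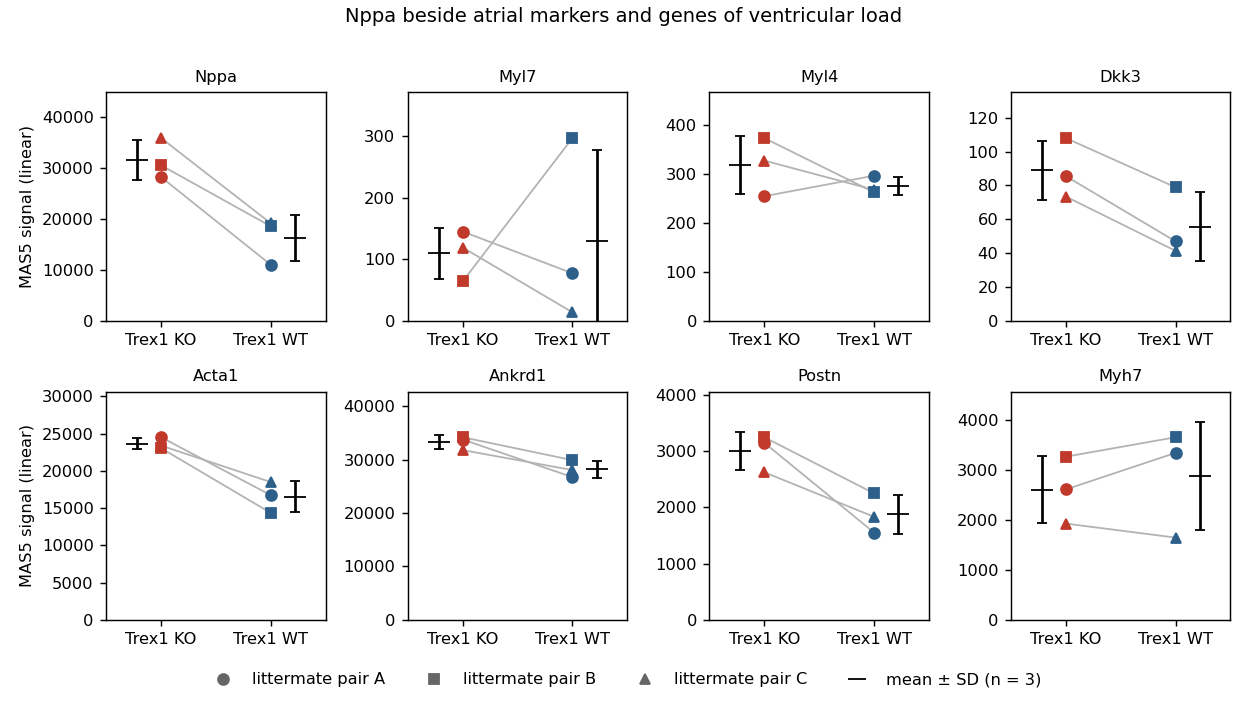
MAS5 signal (linear scale) per array of Nppa, of the atrial markers Myl7, Myl4 and Dkk3, and of the load genes Acta1, Ankrd1, Postn and Myh7, with Trex1 KO at left, Trex1 WT at right, littermates joined and bars of mean ± SD (n = 3, cut at 0). The groups do not overlap for Nppa, Acta1, Ankrd1 and Postn and overlap for the 3 atrial markers and Myh7.

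The genes that process and remove the peptides gave no call. All 5 tested genes of the list (Furin and Pcsk6, proprotein convertases that act on pro-BNP and on Corin, the peptidases Mme, or neprilysin, and Ide, which degrade the peptides, and Dpp4, which trims BNP) had overlapping groups. The log2 differences of their brightest probe sets lay between -0.19 and 0.00 with a median of -0.07, and 0 passed in limma in either fit. There were also 0 at an unadjusted p under 0.05 in either fit, against 5.29% of all tested genes without the block and 8.27% with it. Ide, with the smallest p, had 2415, 2519 and 2276 in Trex1 KO and 2637, 2881 and 2293 in Trex1 WT (log2 difference -0.11, limma adjusted p = 0.959). Its other 4 tested probe sets gave between -0.15 and 0.38 (lowest limma adjusted p = 0.955).

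Downstream of the receptors, the cyclic GMP genes gave no call either. This list holds the soluble guanylyl cyclase subunits, the cyclic GMP-dependent kinases, the phosphodiesterases that break cyclic GMP down and proteins regulated by the kinase. Of 22 genes, 19 were tested and 0 passed in limma, with or without the block. At an unadjusted p under 0.05 there were 0 without the block and 1, Rgs4, with it, against 5.29% and 8.27% of all tested genes. The median difference was -0.02, equal to that of all tested genes, and 9 of 19 were above 0. Rgs4, a regulator of G protein signalling, had the smallest p, with 690, 502 and 375 in Trex1 KO and 693, 777 and 543 in Trex1 WT (log2 difference -0.38, limma adjusted p = 0.955, and 0.544 with the block); its other 2 tested probe sets gave -0.15 and 0.07.

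Transcription factors known to act on the Nppa and Nppb genes gave no call. Of 16 tested genes, among them Gata4, Nkx2-5, Tbx5, Tead1 and Srf, whose families' motifs are marked or named with the promoters above, 0 passed in limma in either fit. At an unadjusted p under 0.05 there were 0 without the block and 1, Mef2c, with it, against 5.29% and 8.27% of all tested genes. The median was 0.08 and the range -0.17 to 0.28. Mef2c, a factor of cardiomyocyte differentiation, had the smallest p, with 2705, 2379 and 1921 in Trex1 KO and 2300, 1701 and 1775 in Trex1 WT (log2 difference 0.28, limma adjusted p = 0.955, and 0.507 with the block). Its other 4 tested probe sets gave between -0.05 and 0.55 (lowest limma adjusted p = 0.87 without the block). Rest, a repressor of fetal cardiac genes, had 468, 499 and 475 in Trex1 KO and 466, 441 and 393 in Trex1 WT (0.15, limma adjusted p = 0.958). Its groups were apart only by the step from 466 to 468. It was the 1 gene of the 16 whose groups did not overlap, against 10.6% of all tested probe sets.

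Other vasoactive and fluid balance genes gave 0 of 10 tested genes past the threshold in limma, with or without the block, and a median of -0.04. At an unadjusted p under 0.05 there were 0 without the block and 2, Ednrb and Ace, with it, against 5.29% and 8.27% of all tested genes. Ednrb, an endothelin receptor, had the smallest p, with 467, 500 and 348 in Trex1 KO and 623, 833 and 447 in Trex1 WT (log2 difference -0.49, limma adjusted p = 0.927, blocked fit 0.335). Its littermate differences were -0.40, -0.72 and -0.35. Its other 2 tested probe sets gave 0.04 and 0.15, in the opposite direction. Ace, the angiotensin-converting enzyme, had littermate differences of 0.41, 0.48 and 0.17 (mean 0.35, limma adjusted p = 0.521 with the block). Its other tested probe set gave 0.95 (limma adjusted p = 0.887 without the block). Adm, the vasodilator adrenomedullin, named like Ace after its values were seen, had 362, 350 and 437 in Trex1 KO and 319, 293 and 318 in Trex1 WT (0.29, limma adjusted p = 0.955).

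Markers of the other cell types that could carry these transcripts gave 0 genes past the threshold in limma, with or without the block. Of the 30 tested, 5 (Cntn2, Tek, Tagln, Adipoq and Fcgr1) had an unadjusted p under 0.05 without the block, which is 16.7%, against 5.29% of all tested genes. With the block there were 8 (Acta2, Adgre1 and Col1a1 in addition), which is 26.7%, against 8.27%. Cntn2 and Adipoq had mean log2 values of 5.92 and 5.49 in Trex1 WT, under the filter of 6.13. They were tested only through their Trex1 KO means of 6.71 and 7.27, which raises the marker shares. The shares over all tested genes passed the same filter, and no conclusion is drawn from the comparison. The list medians were -0.02 for 6 ventricular cardiomyocyte markers, -0.06 for 7 endothelial and endocardial markers, 0.02 for 5 fibroblast markers, -0.22 for 4 smooth muscle markers, 0.25 for 5 macrophage markers and 0.89 for 2 adipocyte markers. Of the genes with the smallest p in each list, Tek, an endothelial receptor, had a log2 difference of -0.36, Tagln of smooth muscle 0.43, Pdgfra of fibroblasts -0.32 and the Fc receptor gene Fcgr1 of macrophages 0.73 (limma adjusted p = 0.890, 0.871, 0.926 and 0.684). The other 2 tested probe sets of Pdgfra gave -0.16 and 0.42, and the other 1 of Fcgr1 gave 0.28. Acta2, smooth muscle alpha-actin, named after its values were seen, had 3145, 3666 and 10697 in Trex1 KO, against 4496, 7642 and 14548 in Trex1 WT, with the Trex1 KO animal lower in each pair, opposite to Tagln (log2 difference -0.67, limma adjusted p = 0.955, and 0.0723 with the block). Among the ventricular markers the smallest p was that of Mybpc3, at -0.03 (limma adjusted p = 0.989). Of conduction system markers only Cntn2 was tested, at 94.6, 88.9 and 82.3 in Trex1 KO and 44.6, 35.8 and 54.2 in Trex1 WT, near background (0.79, limma adjusted p = 0.860). Adipocytes carry Npr1 and Npr3, and of 2 tested adipocyte markers Adipoq (adiponectin) had 66.3, 62.5 and 549 in Trex1 KO, against 23.7, 36.4 and 28.0 in Trex1 WT (log2 difference 1.77, limma adjusted p = 0.823), while Fabp4 had a difference of 0.00. The littermate differences of Adipoq were 1.05, 0.58 and 3.68, and its signals outside Trex1 KO C were near background. The high Adipoq value was in Trex1 KO C. In that array the 3 Npr3 probe sets, brightest first, had 636, 114 and 111 and Npr1 had 48.9. The part of these cell types in the members' values was not tested.

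**Figure D5:**
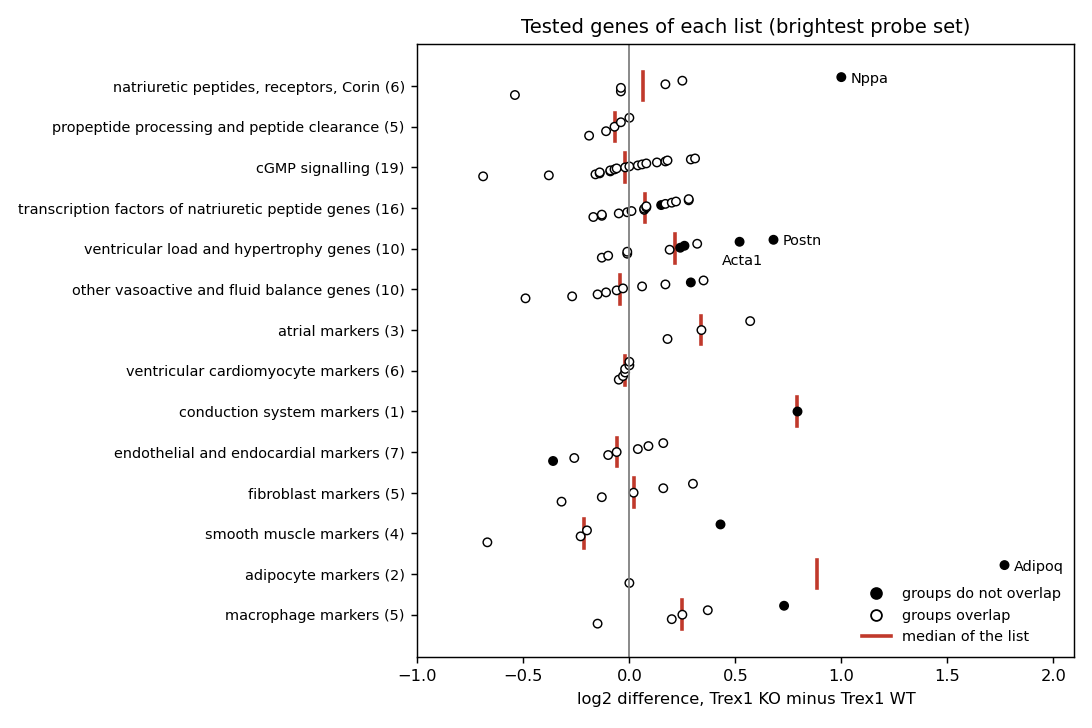
Log2 difference, Trex1 KO minus Trex1 WT, of each tested gene (brightest probe set) in the 14 lists, with the number tested in brackets; filled points are genes whose groups do not overlap and red lines are list medians. Nppa at 1.0 stands apart from the other 5 tested members, and Acta1 and Postn lie to the right in the load list.

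The profiles most like those of Nppa and Nppb were looked for among 12394 other genes by the root-mean-square difference of log2 values centred on each gene's own mean over the 6 arrays, where Nppa itself varied by 0.571 and Nppb by 0.250 around their means. Nearest to Nppa were Zbtb32, a zinc finger repressor, at 0.0422, Oas1c, of the oligoadenylate synthetase family, at 0.114 and Clec4d, a C-type lectin receptor, at 0.139. All 3 were dim: Zbtb32 had 79.1, 90.2 and 106 in Trex1 KO and 21.8, 49.6 and 45.7 in Trex1 WT. Nearest to Nppb were C2cd4b at 0.0631, Cd84 at 0.0643 and Napb at 0.0762. These are descriptions over 6 arrays that share litters and scaling, and among so many genes close profiles occur without any relation.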

How the data were processed

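Total RNA of heart ventricle from 6 mice was hybridised after biotin labelling by the Affymetrix protocol. The deposited values are the authors' linear intensity of each probe set. MAS5 produced them, per the submitters' processing notes; its version is not given in the sources used. The mean of each array, with 2% of values trimmed at each end, was 500.0, so no further normalisation was applied; 45101 probe sets included 64 controls.

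Values were transformed to log2(signal + 16), and probe sets at or above the 40th percentile of the mean log2 value (6.13, a signal of 53.8) were tested, 27022 in all. Differences are Trex1 KO minus Trex1 WT, from limma 3.58.1 in R 4.3.3 (lmFit, eBayes with an intensity trend, two-sided, 4 residual degrees of freedom), with Benjamini-Hochberg adjustment over all tested probe sets and a threshold of 0.05. Only the fit without a block was also run on simulated data, which held no litter effect, and the blocked fit was not. The littermate block left 2 residual degrees of freedom. The series' design text names the pairs, and deviations from group means correlated at 0.151, 0.192 and 0.147 within pairs and between -0.161 and 0.0101 otherwise, across probe sets. The p-values refer to differences among these animals, each hybridised once, and the number of arrays limits precision. In limma the spread of each probe set is drawn towards that of probe sets of similar intensity. The limma p-values therefore rest in part on the spread of other probe sets.

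Genes were named by the platform annotation, updated through a RefSeq table of GRCm38.p6 (0 symbols changed); the files name no build. The brightest single-symbol probe set stood for a gene. Named were all members, from each of 13 lists (112 genes, 104 found) the gene with the smallest p and any that passed, and the 3 genes most like Nppa and Nppb. Members and lists were chosen with earlier results of these data known. Alternatives were the pseudocount, filter, normalisation, variance model, block, covariates, averaging of probe sets and arrays or pairs left out.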

Additional observations from a re-analysis of the deposited data

How the results depend on the processing

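The number of member probe sets past the threshold was 0 in the fit of all arrays without a block. It was 1, Nppa, with quantile normalization (log2 difference 1.03, limma adjusted p = 0.0369) and 1, Nppa, with the littermate pair as a replicate block (1.0, limma adjusted p = 0.00886). It was 0 under the other settings without the block, including 0 to 0 when an array or a pair was left out. Combinations of the replicate block with another setting were added after seeing the data: 9 of 11 gave a count of 1, always Nppa, with limma adjusted p-values from 0.000188, and the Actb covariate and an untrended eBayes gave 0 (0.0997 and 0.507). All blocked fits lean in part on the spread of other probe sets. Those of 2 pairs, and those with a covariate, have the least spread of their own. Nppa stayed above 0 in all 19 alternatives without such combinations (0.74 to 1.14, limma adjusted p from 0.00886 to 0.825). Nppb ranged from -0.16 to 0.43, Corin from -0.27 to 0.04, Npr2 from -0.14 to 0.08 and the brightest Npr3 probe set from 0.06 to 0.87, the last with the Actb ratio as a covariate, and none of these passed. The causes were not tested. Over all probe sets, 59 were higher and 7 lower without the block, 105 and 16 with it, 24 and 4 with eBayes untrended, 8 and 1 under the Actb covariate, and 23 and 0 with pair A left out. Of the list counts, recomputed without the averaging of probe sets and without the added combinations, that of load genes moved to 1 (Postn) without Trex1 WT B and the others did not move. Signals near background limit what can be seen of Nppc and Npr1.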
